A study of Mus musculus with 2 samples.

Results

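The genes of the classic axon guidance system were followed in ureters of mouse embryos labelled as conditional Gata6 knockouts. They were chosen by name: all probes for semaphorins of classes 3 to 7, plexins, neuropilins, ephrins, Eph receptors, Slits, Robo receptors, netrins, Unc5 receptors and Dcc. The choice took 101 of the 39429 probes on the array, which stand for 70 of 30011 gene names. Of these genes, 35 encode ligands and 34 encode receptors. The remaining name, Plxna4os1, is an antisense RNA of the Plxna4 locus and belongs to neither class.

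Total RNA came from ureters of NMRI embryos at E14.5. The RNAs named Gata6cKO were from Tbx18(cre/+);Gata6(fl/fl) embryos, which have 2 floxed Gata6 copies and carry cre in 1 Tbx18 copy, so that recombination takes place in cells with a history of Tbx18, a transcription factor gene that is active in ureteric mesenchyme. The control RNAs were from Gata6(fl/?) embryos, which have 1 or more floxed copies and whose labels name no cre, so cre and the altered Tbx18 copy cannot be told apart from the labelled loss of Gata6. Each of 2 two-colour arrays held 1 Gata6cKO and 1 control RNA, with 150 ng of RNA as input. On replicate 1 both RNAs were male, with Gata6cKO in AlexaFluor647 (read in the Cy5 channel) and control in AlexaFluor555 (Cy3 channel). On replicate 2 both were female and the dyes were exchanged. Sex, replicate and dye orientation therefore cannot be told apart. Pooling and litters are not described in the labels, so the p-values speak only for these samples. The spread behind them is that between the 2 arrays, largely pooled across genes.

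Median spot signals lay at 425 and 224 in the Gata6cKO channels and at 232 and 442 in the control channels (replicates 1 and 2), and 67.2% to 68.5% of the spots were well above background. Of the markers of the labelled tissue, all 17 urothelial, 8 of 9 smooth muscle and all 8 ureteric mesenchyme markers were above background. So were most markers of the other lists, such as 7 of 7 of nephron and kidney stroma, so this does not single out ureter. Gata6, the targeted gene and a zinc finger transcription factor, had a log2 ratio of 0.85 (male array) and 0.46 (female array) at a limma adjusted p of 0.00573, so the Gata6cKO-labelled RNAs had the higher signal. Whether its probe lies inside the deleted part is not given in the sources used here, so this value checks nothing about the labels, and every direction below is that of the labels. Several marker lists differed between the genotypes. The summed level of 13 measured neuronal markers was 55653 and 52120 in Gata6cKO, against 35451 and 37202 in control, and 10 of the 13 rose, with a median log2 ratio of 1.28. Such sums are weighted by bright probes, such as that of Snap25, which did not pass. Chrna3, the other one of the 14 listed, was not above background. The summed level of 17 urothelial markers was 218112 and 198641 in Gata6cKO, against 286378 and 269997 in control, and 9 fell (median log2 ratio -0.57). Of the measured Schwann cell and neural crest markers 3 of 8 rose and 1 fell, of the smooth muscle markers 4 of 8 fell, of the skeletal muscle markers 4 of 6 rose, and of the endothelial markers 1 of 12 fell. Of the nephron and kidney stroma markers 3 of 7 rose (Cited1, Lhx1 and Lrp2), and of the 3 measured mesothelial markers Wt1 rose and Upk3b and Msln fell. Of the 8 ureteric mesenchyme markers 0 rose and 0 fell, with a median log2 ratio of -0.11. Over all genes tested, 2.22% rose and 2.36% fell at a limma adjusted p under 0.05. The part of these cell types in the guidance gene values was not tested, and in bulk RNA fewer cells of a type and less RNA per cell cannot be told apart.

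Guidance cues are secreted or membrane-bound proteins that attract or repel growing axons and migrating cells. Semaphorins act on plexins, and most secreted class 3 semaphorins bind a neuropilin as the co-receptor of an A-type plexin. Ephrins, which are held on the cell surface, bind Eph receptor tyrosine kinases on a neighbouring cell. Slits repel through Robo receptors, while netrins attract through Dcc and repel through Unc5 receptors. In the mouse urinary tract, Slit2 and Robo2 are known to restrict where the ureteric bud grows out of the nephric duct, and several of the cues also guide vessels and nerves into organs.

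A gene was tested where at least 3 of the 4 spots of a probe were well above local background in one genotype on both arrays, and its brightest such probe stood for it. That left 64 of the 70 guidance genes. Dcc is counted among them, but only through a probe annotated to another chromosome than its own, as described further on. Epha6, Ntn4, Ntn5, Robo3, Unc5d and Plxna4os1 were not above background. At a limma adjusted p under 0.05 over all 19875 genes tested, 10 of the 64 guidance genes passed: 8 rose and 2 fell in Gata6cKO. Over the whole array 4.58% of genes passed (2.22% higher and 2.36% lower), while the guidance share was 15.6% (12.5% higher and 3.12% lower). The median log2 ratio of the guidance genes was 0.01, and that of all genes was 0.00. Among the 34 receptor genes 31 were tested, of which 6 rose (Robo2, Nrp2, Plxna4, Epha4, Plxnb3 and Plxna2), 2 fell (Epha1 and Unc5c) and 23 did not pass. Among the 35 ligand genes 33 were tested, of which 2 rose (Sema5b and Ntn1), 0 fell and 31 did not pass. At an unadjusted limma p under 0.05, 8 ligand genes were higher and 2 lower, and 7 receptor genes were higher and 5 lower. The share of all genes at that threshold was not counted, so these counts cannot be read as many or few. No ligand gene was called lower under any other setting tried. The medians of the receptors and the ligands were -0.03 and 0.05.

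All 10 changes were under 2-fold. Only Sema5b and Robo2 were at least 1.5-fold higher on both arrays, a size that 0.946% of all genes reached upward, and no guidance gene was that much lower on both by its brightest probe, against 0.83% of all genes. Another probe of Epha5, described further on, was (-0.64 and -0.79). Both Gata6cKO levels lay above both control levels in 18 guidance genes and below them in 11. Over all genes these shares were 15.9% and 17.6%. The log2 ratios of 39 guidance genes lay within 0.2 of 0, and 26 of the 64 tested had opposite signs on the 2 arrays. The share of all genes within 0.2 of 0 was not counted. Of the 25887 kept probes without a simple repeat, 50.5% had opposite signs, as had 83.4% of the 313 with one. These are shares of probes, while the 26 are genes, some of them read from repeat probes. All 10 calls were lost where each array was centred on its median in place of loess, with the smallest adjusted p at 0.0591 for Sema5b. The ratios themselves moved little there, with 0.84 for Sema5b, 0.80 for Robo2, 0.57 for Nrp2 and -0.62 for Epha1. Without the filter on dim probes 3 of the 10 were still called (Sema5b, Robo2 and Epha1), as were 3 where the 4 RNAs were fitted as separate channels (Sema5b, Robo2 and Nrp2).

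**Figure D1:**
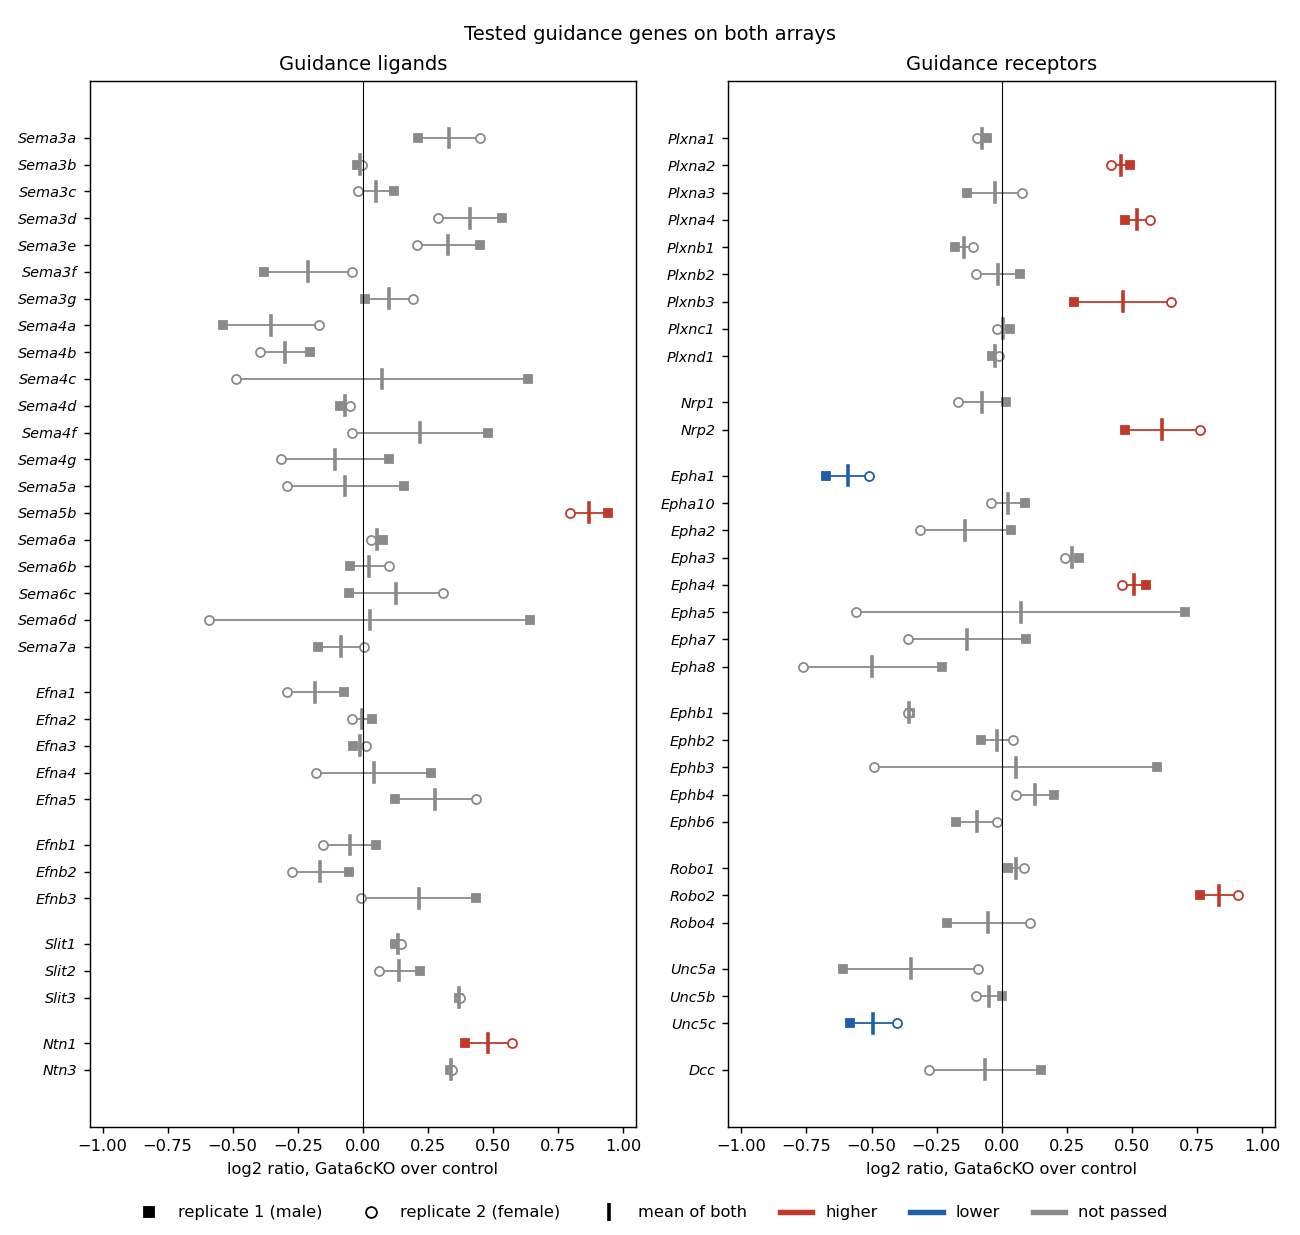
Log2 ratio of Gata6cKO over control for each of the 64 tested guidance genes, ligands in the left panel and receptors in the right panel, grouped by family. Filled squares are replicate 1 (male), open circles replicate 2 (female) and upright ticks their mean; red genes were higher (8), blue ones lower (2) and grey ones did not pass the limma test, and the widest gaps between square and circle are those of Sema4c, Sema6d, Epha5 and Ephb3.

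Sema5b had the largest change of all guidance genes. It is a transmembrane semaphorin with thrombospondin repeats, known in the mouse retina as a repellent that acts through A-type plexins. Its probe (mm9 chr16:35664281-35664340, + strand) had normalised intensities of 2076 and 1837 in Gata6cKO, against 1082 and 1058 in control (replicates 1 and 2 each). The Gata6cKO levels lay well above the control levels with no overlap, and the control RNAs differed little from each other. The log2 ratio was 0.87 ± 0.11 (moderated SE, n = 2 arrays), a 1.83-fold higher level at a limma adjusted p of 0.000373. It was 0.94 (male array) and 0.80 (female array). A pair of further Sema5b probes gave log2 ratios of 0.85 and 0.48, and all 3 passed where each probe was fitted on its own.

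The other 19 semaphorin genes did not pass. Nearest was Sema3d, a secreted class 3 semaphorin, with 2727 and 2444 in Gata6cKO, against 1881 and 2000 in control. These levels did not overlap, and the log2 ratio of 0.41 had a limma adjusted p of 0.064. Sema3d lies on chromosome 5 near Sema3a, Sema3c and Sema3e. Sema3a, the secreted ligand of neuropilin 1 and A-type plexins, had 1679 and 1493 in Gata6cKO, against 1450 and 1092 in control, and a log2 ratio of 0.33 (adjusted p = 0.171). Sema3e, which binds plexin D1 without a neuropilin, had 228 and 222 in Gata6cKO, against 167 and 192 in control, and a log2 ratio of 0.33 (adjusted p = 0.178). In neither gene did the genotypes overlap, and Sema3e was called under 3 of the 10 other settings. Sema3c, which is known for its part in the outflow tract of the mouse heart, had 26001 and 25843 in Gata6cKO, against 23958 and 26184 in control, and the genotypes overlapped (log2 ratio 0.05).

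Sema3f, the ligand of neuropilin 2, had a log2 ratio of -0.21 with -0.38 (male array) and -0.04 (female array). Sema3b and Sema3g had log2 ratios of -0.01 and 0.10. Among the transmembrane class 4 genes the lowest value was that of Sema4a, at 1834 and 1867 in Gata6cKO, against 2659 and 2095 in control. Its Gata6cKO levels were the lower ones without overlap, and the log2 ratio was -0.35 (limma adjusted p = 0.167). Sema4b had -0.20 (male array) and -0.39 (female array), at an adjusted p of 0.243. Sema4d, a ligand of plexin B1, had -0.07, Sema4g had -0.11 and Sema4f had 0.22. Sema5a, the close relative of Sema5b, had 26378 and 24655 in Gata6cKO, against 23652 and 30205 in control, so its levels overlapped (log2 ratio -0.07). The class 6 genes Sema6a, Sema6b and Sema6c, transmembrane ligands of A-type plexins, had 0.05, 0.02 and 0.13. Sema7a, which a lipid anchors to the membrane and which binds plexin C1 and integrins, had -0.08.

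Among the netrins, Ntn1 rose and Ntn3 did not pass. Ntn1 encodes netrin-1, a secreted laminin-like cue. Its brightest probe (mm9 chr11:68022986-68023045, - strand) had 3617 and 3166 in Gata6cKO, against 2755 and 2131 in control. Both Gata6cKO levels were above both control levels, and replicate 1 had the higher level in either genotype. The log2 ratio was 0.48 ± 0.11, a 1.40-fold higher level (limma adjusted p = 0.0242). The second Ntn1 probe (mm9 chr11:68040053-68040112) did not share this difference: it had 213 and 196 in Gata6cKO, against 232 and 184 in control, a log2 ratio of -0.02. With the mean of both probes Ntn1 had a log2 ratio of 0.23 and was not called (adjusted p = 0.403). Ntn3 had 4158 and 4795 in Gata6cKO, against 3300 and 3785 in control, without overlap and with nearly equal ratios on the arrays (0.33 and 0.34, adjusted p = 0.132).

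None of the 3 Slits passed the limma test, 1 of them at an unadjusted p under 0.05, and all 3 had positive log2 ratios on both arrays. Slit3 had 3082 and 3471 in Gata6cKO, against 2388 and 2679 in control. Its genotypes did not overlap and its ratio was the same on both arrays (0.37 each, limma adjusted p = 0.0873). Slit2, the Robo ligand known from ureteric bud outgrowth in the mouse, had 5641 and 5505 in Gata6cKO, against 4848 and 5279 in control (log2 ratio 0.14). Slit1 had a log2 ratio of 0.14.

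No ephrin passed the limma test, and 1 of the 8, Efna5, did so at an unadjusted p under 0.05. This ephrin with a lipid anchor had the highest ratio, with 7844 and 8282 in Gata6cKO, against 7208 and 6132 in control. The levels did not overlap, but the ratio was 0.12 (male array) and 0.43 (female array), with a mean of 0.28 (limma adjusted p = 0.349). Efna1, Efna3 and Efna4 are neighbours on chromosome 3 and had log2 ratios of -0.18, -0.01 and 0.04. Efna2 stood at 0.00. Of the transmembrane ephrins, Efnb1 had 42027 and 40140 in Gata6cKO, against 40527 and 44701 in control, with overlap (log2 ratio -0.05). Efnb2, which marks arterial endothelium in the mouse, had -0.17 (-0.06 and -0.27), and Efnb3 had 0.21 (0.44 and -0.01).

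Plexins, the signalling receptors of semaphorins, held 3 of the 8 rises: Plxna4, Plxna2 and Plxnb3. Plxna4 is a receptor of Sema3a together with neuropilin 1 and also binds class 6 semaphorins. Its probe (mm9 chr6:32094602-32094661, - strand) had 1379 and 1155 in Gata6cKO, against 994 and 780 in control. The replicate 1 level was the higher one in either genotype, and the genotypes did not overlap. The log2 ratio was 0.52 ± 0.11, a 1.43-fold higher level at a limma adjusted p of 0.0135. Plxna2, a receptor of Sema6a, had 10696 and 11541 in Gata6cKO, against 7595 and 8620 in control (mm9 chr1:196642958-196643017, + strand). Again no control level reached the Gata6cKO levels. The log2 ratio of 0.46 ± 0.11 is a 1.37-fold higher level (adjusted p = 0.0293).

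Plxnb3, a receptor of Sema5a, had the dimmest probe of the 10 (mm9 chrX:71017572-71017631, + strand), with 203 and 247 in Gata6cKO, against 167 and 157 in control. These values include the added offset of 50, and both genotypes were well above background. The Gata6cKO levels were higher without overlap, but the ratio was 0.28 (male array) and 0.65 (female array). Its mean log2 ratio was 0.46 ± 0.12, a 1.38-fold higher level at a limma adjusted p of 0.0456. Across the settings tried the Plxnb3 ratio ranged over 0.46 to 0.78. The 6 other plexins did not pass, with log2 ratios between -0.14 and 0.00. Plxnd1, the Sema3e receptor of blood vessels, had 28080 and 27210 in Gata6cKO, against 28849 and 27434 in control, and Plxnb2 had 34673 and 37062 in Gata6cKO, against 33008 and 39715 in control. Plxna1, Plxna3, Plxnb1 and Plxnc1 had log2 ratios of -0.08, -0.03, -0.14 and 0.00.

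Of the neuropilins, Nrp2 rose and Nrp1 did not pass. Nrp2 binds Sema3f as the co-receptor of plexins and binds VEGF-C on lymphatic endothelium. The Nrp2 probe (mm9 chr1:62865129-62865188, + strand) had 16049 and 17685 in Gata6cKO, against 11570 and 10444 in control. Both Gata6cKO levels were clearly the higher ones. The log2 ratio was 0.62 ± 0.12, a 1.53-fold higher level (limma adjusted p = 0.00618). The ratios were 0.47 (male array) and 0.76 (female array). A second Nrp2 probe had 1936 and 1780 in Gata6cKO, against 1308 and 1349 in control, and passed too with a log2 ratio of 0.48. Nrp1, the Sema3a co-receptor, had 2915 and 2920 in Gata6cKO, against 2886 and 3278 in control, so the genotypes overlapped (log2 ratio -0.08).

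**Figure D2:**
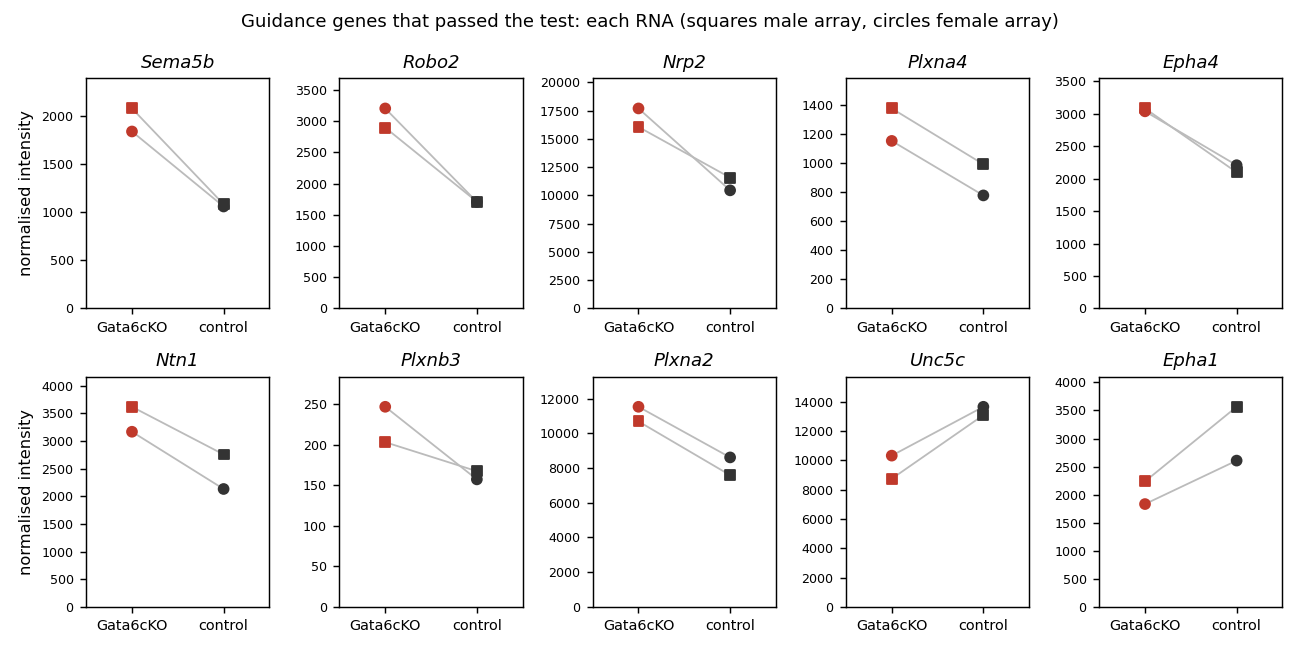
Normalised intensity of the 10 guidance genes that passed the limma test, in Gata6cKO (red, left) and control (black, right), each axis from 0. Squares are the male and circles the female array, and each line joins the RNAs of 1 array: 8 genes run down to control and 2, Unc5c and Epha1, run up, with no overlap between the genotypes in any of the 10. The genes were picked by a test on these same values, so the lack of overlap is no further evidence.

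Eph receptors changed in both directions, with Epha4 higher and Epha1 lower. Epha4 is an Eph receptor known to bind ephrins of both types. Its probe (mm9 chr1:77364339-77364398, - strand) had 3080 and 3036 in Gata6cKO, against 2096 and 2206 in control. The replicates of each genotype lay close together and the genotypes were well apart. The log2 ratio was 0.51 ± 0.11, a 1.42-fold higher level at a limma adjusted p of 0.0156. Epha1, a receptor of A-type ephrins, had 2236 and 1832 in Gata6cKO, against 3566 and 2607 in control (mm9 chr6:42308583-42308642, - strand). Both control levels were above both Gata6cKO levels. The log2 ratio of Epha1 was -0.59 ± 0.11, which is 1.51-fold lower (adjusted p = 0.00619). It was -0.67 (male array) and -0.51 (female array).

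Epha8 stood just outside the threshold. It had 1899 and 1772 in Gata6cKO, against 2229 and 3007 in control, and the log2 ratio of -0.50 had a limma adjusted p of 0.0505. Its genotypes did not overlap, but the ratio was -0.23 (male array) and -0.76 (female array), and 5 of the 10 other settings called it. Ephb1 had 886 and 850 in Gata6cKO, against 1132 and 1091 in control, without overlap and with log2 ratios of -0.35 (male array) and -0.36 (female array), at an adjusted p of 0.105. Epha3 had 0.27 (adjusted p = 0.31), and its Gata6cKO levels of 1239 and 1118 lay above the control levels of 1008 and 945. Epha2 and Epha7 had log2 ratios of -0.14 and -0.13 with opposite signs on the arrays, and Epha10 had 0.02. Ephb4, the venous receptor of Efnb2, had 0.13, Ephb6, which lacks kinase activity, had -0.10, and Ephb2 had -0.02.

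Robo2 had the second largest change among the guidance genes. It encodes a Slit receptor, and in mice without it several ureteric buds can form. The Robo2 probe (mm9 chr16:73894653-73894712, - strand) had 2896 and 3203 in Gata6cKO, against 1710 and 1706 in control. The control levels were nearly equal and both Gata6cKO levels were far above them. The log2 ratio was 0.83 ± 0.11, a 1.78-fold higher level at a limma adjusted p of 0.000489. The 2 further Robo2 probes had log2 ratios of 0.63 and 0.46, and both passed where each probe was fitted on its own. Robo1, the neighbour of Robo2 on chromosome 16, had 5021 and 5121 in Gata6cKO, against 4940 and 4825 in control, a log2 ratio of 0.05. The endothelial receptor Robo4 had 9244 and 10750 in Gata6cKO, against 10696 and 9976 in control, with overlap (log2 ratio -0.05).

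Dcc, the netrin receptor of attraction, had no probe above background at its own locus. Its 2 probes on chromosome 18, where RefSeq places the gene, were not above background. The tested probe is annotated to chromosome 7 in the files and holds a repeat of GAA. It had 148587 and 127532 in Gata6cKO, against 133801 and 154988 in control, with overlap (log2 ratio -0.06). It was the one member probe whose chromosome differed from that of its gene in RefSeq.

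The netrin receptor Unc5c fell. Unc5c mediates repulsion by netrin-1. It had 8751 and 10332 in Gata6cKO, against 13102 and 13670 in control (mm9 chr3:141497142-141497201, + strand). Both Gata6cKO levels were lower without overlap. The log2 ratio of Unc5c was -0.49 ± 0.11, which is 1.41-fold lower (limma adjusted p = 0.0211). A second Unc5c probe had 2166 and 2352 in Gata6cKO, against 2746 and 3209 in control, and narrowly missed the threshold among all kept probes (adjusted p = 0.0544). Unc5b, a netrin receptor of vessels, had 17127 and 17378 in Gata6cKO, against 17124 and 18607 in control (log2 ratio -0.05). Unc5a had -0.61 (male array) and -0.09 (female array), at an adjusted p of 0.231, from a probe that holds a run of TA.

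The widest disagreement between the arrays was that of Epha5, Ephb3, Sema4c and Sema6d, whose brightest probes share a simple repeat. The 30 bases of each probe that hold the run are shown because it is what the 4 have in common, with the repeat in capitals. The last pair of lines shows 30 bases of the other Epha5 probes, which have none.
Epha5: cgaaatTGTGTGTGTGTGTGTGTGTGcgtg
Ephb3: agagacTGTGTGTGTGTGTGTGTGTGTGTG
Sema4c: aaTGTGTGTGTGTGTGTGTGTGTGttgtaa
Sema6d: agaggggcgaGTGTGTGTGTGTGTGTGTGT
Epha5, probe A_55_P2062921: gtaccatttattacctataaatatcatagt
Epha5, probe A_55_P2100425: gttcccatctgcatttgtttgtgctttcag
The Ephb3 run goes on to 32 bases in the whole probe, and the runs of Epha5, Sema4c and Sema6d have 20, 22 and 20 bases. On both arrays the signal of these 4 probes was higher in the RNA labelled for the Cy5 channel, which was Gata6cKO on the male array and control on the female array. Epha5 had 8076 in Gata6cKO and 4957 in control on replicate 1, and 5690 in Gata6cKO and 8387 in control on replicate 2. The log2 ratios were 0.70 and -0.56 for Epha5, 0.59 and -0.49 for Ephb3, 0.63 and -0.49 for Sema4c, and 0.64 and -0.59 for Sema6d. The pattern was not limited to guidance genes. Over all 106 kept probes with at least 6 repeats of TG, the median log2 ratio of Cy5 over Cy3 was 0.68 on replicate 1 and 0.53 on replicate 2, and 92.5% were over 0.3 toward Cy5 on both arrays. The 25887 kept probes without a simple repeat had medians of 0.00 on both arrays, and 0.321% of them were over 0.3 toward Cy5 on both.

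Epha5 could be read without that probe. The second probe (mm9 chr5:84483837-84483896) had 981 and 860 in Gata6cKO, against 1471 and 1555 in control. The third (mm9 chr5:84494886-84494945) had 464 and 474 in Gata6cKO, against 722 and 818 in control. Both showed lower levels in Gata6cKO without overlap, with log2 ratios of -0.72 and -0.71, and both passed among all kept probes (adjusted p = 0.000998 and 0.000787). In a fit without repeat probes, an alternative added after the data had been seen, Epha5 had a log2 ratio of -0.72 and a limma adjusted p of 0.000172, while its brightest probe gave 0.07. Epha5 encodes an A-type Eph receptor. The other Sema6d probe had 165 and 166 in Gata6cKO, against 164 and 171 in control, a log2 ratio of -0.02, and Ephb3 and Sema4c had no other kept probe.

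**Figure D3:**
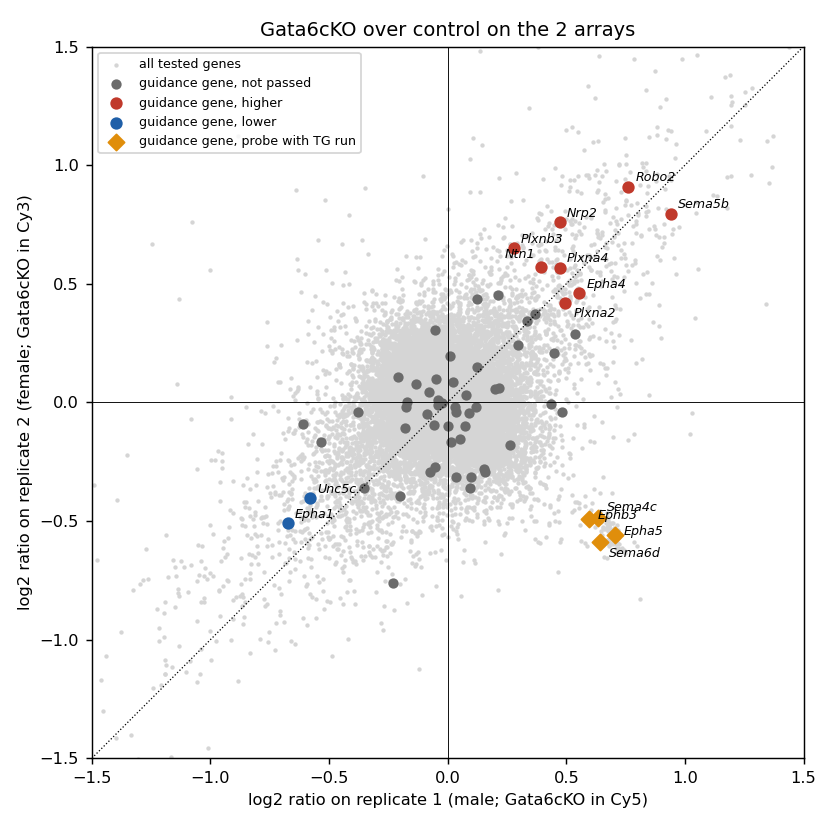
Log2 ratio of Gata6cKO over control on the male array (horizontal) against the female array (vertical) for the tested genes, within 1.5 of 0 on each axis. Guidance genes that passed have the same sign on both arrays and lie around the dotted line of equal ratios (red higher, blue lower). They were picked by a test on these same values, so this agreement is no further evidence. The 4 genes whose probes hold a run of TG (orange diamonds) lie at the lower right, positive on the male and negative on the female array.

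Of the 64 tested genes, 20 had more than 1 kept probe and 44 had 1. In 14 of the 20, all probes had the same sign, among them the called genes Sema5b, Robo2, Nrp2 and Unc5c. The probes of 6 genes had both signs: Ntn1, Epha5, Efna3, Ephb6, Plxnc1 and Sema6d. Levels of different probes are not comparable, so only ratios are set side by side here.

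**Figure D4:**
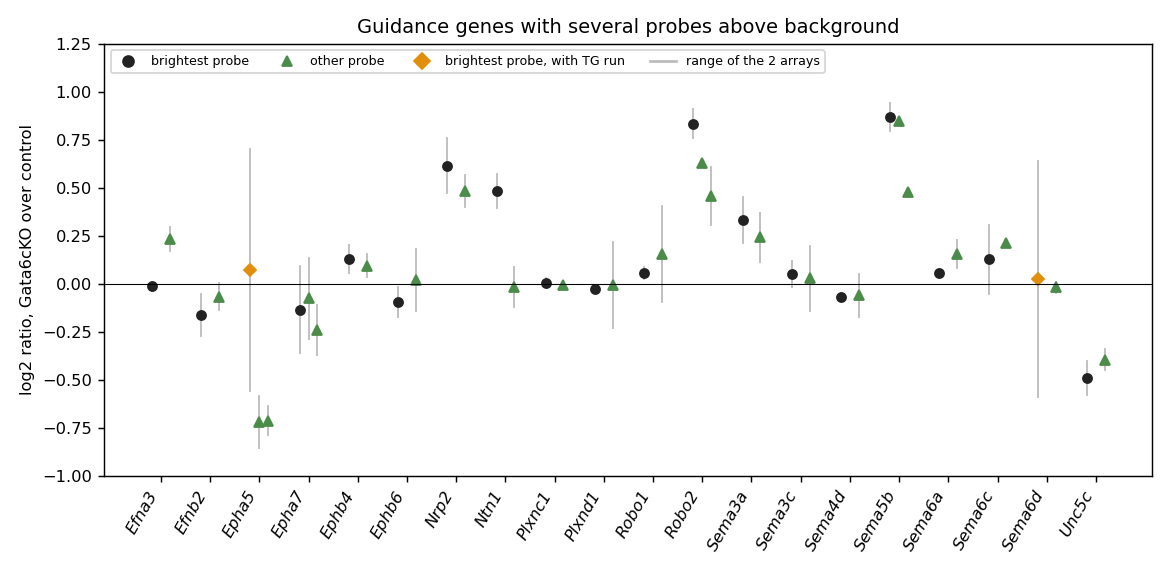
Mean log2 ratio of Gata6cKO over control for every kept probe of the 20 guidance genes with several probes. Dots are the brightest probe, triangles the others, orange diamonds brightest probes with a run of TG, and grey bars span the 2 arrays; the 3 probes each of Sema5b and Robo2 all lie above 0, while the brightest probes of Ntn1 and Epha5 stand apart from their others.

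GATA factors bind short sites around GATA, so the 250 bases before the RefSeq transcript starts (GRCm38.p6) were searched for the motifs AGATAA and AGATAG as well as TGATAA and TGATAG, on both strands. Promoters were available for 59 of the 70 guidance genes, and for 8 of the 10 that passed, all but Ntn1 and Plxna4. A match stood in 8718 of all 32851 promoters (26.5%), in 9 of 75 promoters of guidance genes (12%) and in 3 of 10 promoters of guidance genes that passed (30%). Guidance promoters were richer in G and C, with a median of 64.4%, against 52.4% over all promoters. The 3 matches among the genes that passed are shown on the strand of the gene, with the match in capitals. They are the Plxna2 promoter (chr1:194619579-194619828, + strand), the Plxnb3 promoter (chrX:73756853-73757102, + strand) and 1 of 3 Robo2 promoters (chr16:75092771-75093020, - strand).
Plxna2: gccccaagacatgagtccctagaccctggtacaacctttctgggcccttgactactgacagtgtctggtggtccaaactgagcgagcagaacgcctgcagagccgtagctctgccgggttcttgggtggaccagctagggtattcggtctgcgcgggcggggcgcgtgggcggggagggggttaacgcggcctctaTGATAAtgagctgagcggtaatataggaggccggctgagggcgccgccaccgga
Plxnb3: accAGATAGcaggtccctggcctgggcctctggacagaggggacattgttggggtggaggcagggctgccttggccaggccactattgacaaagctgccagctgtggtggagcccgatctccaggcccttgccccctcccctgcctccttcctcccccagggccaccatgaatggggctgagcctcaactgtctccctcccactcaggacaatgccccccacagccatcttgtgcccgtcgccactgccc
Robo2: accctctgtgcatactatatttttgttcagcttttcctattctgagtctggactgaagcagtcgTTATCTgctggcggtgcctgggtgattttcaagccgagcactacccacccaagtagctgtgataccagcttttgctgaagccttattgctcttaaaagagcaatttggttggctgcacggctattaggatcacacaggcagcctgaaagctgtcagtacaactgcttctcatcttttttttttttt
The Plxna2 match, TGATAA, begins 54 bases before the start. The Plxnb3 match, AGATAG, begins 247 bases before it, and TTATCT, which reads AGATAA on the other strand, begins 186 bases before the Robo2 start. The promoters of Sema5b, Nrp2, Epha4, Epha1 and Unc5c held none of these letters in this window. A match is a description of the sequence and not of binding.

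Further genes of the pathway were read from 2 lists. Of 26 other guidance cues and surface partners 22 were tested, of which 2 rose, 3 fell and 17 did not pass, with a median log2 ratio of 0.14. Over all genes tested, 2.22% rose and 2.36% fell. Chl1, an adhesion molecule of the L1 family that serves as a partner of neuropilin 1 in Sema3a signalling, had 2442 and 2369 in Gata6cKO, against 1365 and 1285 in control. Cntn1, the adhesion molecule contactin 1 of axons, had 3541 and 4123 in Gata6cKO, against 2347 and 1638 in control. Both genes were higher without overlap, with log2 ratios of 0.86 and 0.96 (limma adjusted p = 0.000356 and 0.00149). Cxcl12, a chemokine that guides migrating cells, had 66463 and 65020 in Gata6cKO, against 87774 and 89238 in control, and fell by 0.43. Itga3, an integrin subunit that binds laminin, fell by 0.49, and Lrrc4c, a partner of netrin-G1, fell by 0.61, with -0.98 (male array) and -0.24 (female array). Cntn2, Draxin, Dscaml1 and Ntng2 were not above background.

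Of 45 intracellular guidance effectors, which relay receptor signals to the cytoskeleton, all were tested. The limma test called 0 higher and 1 lower, and 44 did not pass, with a median log2 ratio of 0.01. It called 2.22% of all tested genes higher and 2.36% lower. At an unadjusted p under 0.05, 2 effectors were higher and 2 lower, and the share of all genes there was not counted. The one that fell was Mical2, an actin-oxidising enzyme of a family that acts downstream of plexins, with 376 and 337 in Gata6cKO, against 568 and 487 in control. Both control levels lay above the Gata6cKO levels, and Mical2 fell by 0.56 on the log2 scale (limma adjusted p = 0.0078).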

How the data were processed

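The members and gene lists were chosen with earlier results of these data known. Per the labels, each two-colour array compared 1 Gata6cKO with 1 control RNA. The deposited scanner files give, per the file headers, the mean intensity and the median background intensity of each spot in both dyes, before correction, and Agilent Feature Extraction 10.7.3.1 (per the submitters' processing notes) gave a processed intensity and a log10 ratio of Cy5 over Cy3. The deposited series values are a score per probe and array. Set against the processed intensities, the score behaved as a linear fold with a sign, Gata6cKO over control (0 values between -1 and 1), with r of 0.985 and 0.98 on the log2 scale. Its direction was therefore settled from the scanner files, while how the authors summarised spots is not stated.

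The tools were limma 3.58.1 in R 4.3.3, statmod 1.5.0 and data.table (1.17.8). Normexp with an offset of 50 corrected the background, and log2 ratios were normalised within arrays by loess. Spots of a probe were averaged, and the probe filter left 26200 of 39429 probes. Of the 101 guidance probes 88 were kept. Intensities per RNA come from the same values after quantile scaling of the mean intensity between arrays, and they compare RNAs for 1 probe, not probes with each other. The ratio on the dye-swapped array was turned, and lmFit and eBayes were run over 19875 genes with Benjamini-Hochberg adjustment at 0.05 (two-sided). The fit had 1 residual and 12.2 prior degrees of freedom (prior SD 0.162), so the spread is largely pooled across genes. No spot was saturated. There were 0 unused per-sample columns.

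Gene names and mm9 probe coordinates are those of the scanner files. Names were updated with a RefSeq table of GRCm38.p6 (28328 probes matched by accession, 1359 symbols changed), which also gave the promoters. No genome of the files' build was used, so exons and UTRs are not given. Both RNAs of an array are a pair by hybridisation, and the array is the replicate block of the main analysis. All guidance genes could be named, and of the other lists the genes that passed, up to 6 each by smallest p. The test was checked on simulated data. Alternatives covered background correction, normalisation, the probe filter, the probe of a gene, the source of the values, the replicate block, the prior, a 1.5-fold rule, and 2 chosen after seeing the data (no repeat probes, each probe on its own). The number of arrays limits the precision.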

Additional observations from a re-analysis of the deposited data

Results flagged for a closer look

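The Gata6cKO over control ratio had opposite signs on the male and the female array, each more than 2 prior SDs (0.324) from 0, in 4 of the 26 guidance genes with opposite signs. The female log2 ratio minus the male one was -1.26 for Epha5, -1.08 for Ephb3, -1.12 for Sema4c and -1.23 for Sema6d. This difference was not tested, since each sex had 1 array, and sex, replicate and dye orientation cannot be told apart. All 4 values come from probes with a run of TG, and on both arrays these probes were brighter in the Cy5 channel. The other probes of Epha5 had the same sign on both arrays (-0.64 and -0.79 for one, -0.58 and -0.85 for the other), and the other Sema6d probe lay within 0.05 of 0 on both.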

How the results depend on the processing

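The array as replicate block is the main analysis, with 441 genes higher and 470 lower, 2 ligands higher and 0 lower, and 6 receptors higher and 2 lower. With separate channels and no replicate block the counts were 225 and 201 for all genes, 1 ligand higher, and 2 receptors higher and 0 lower. Median centring in place of loess called 90 genes higher and 100 lower, with 0 ligands higher and 0 receptors in either direction. No filter on dim probes called 255 and 231, with 1 ligand higher and 1 receptor in each direction. The deposited series values called 680 and 804, with 4 receptors lower and all 10 guidance calls kept. The 1.5-fold rule on both arrays took 188 and 165, with 1 ligand and 1 receptor higher and 0 receptors lower. The mean of the kept probes left 1 ligand higher. Without repeat probes, and with each probe fitted on its own, 4 receptors were lower, and without repeat probes Epha5 turned to -0.72. On single arrays Epha5 had -0.56 (without replicate 1) and 0.70 (without replicate 2). The fit without repeat probes also called Sema3d (limma adjusted p = 0.0313) and Epha8 (0.015) and left 4 guidance genes unmeasured. Processed signals, no background subtraction, the stricter filter and an intensity trend in the prior kept all 10 guidance calls and added 1 or 2. None of the 10 guidance genes called in the main analysis changed sign under any setting. Leaving out either array leaves no residual degree of freedom, so only ratios, and no counts of calls, could be had. The causes of these shifts were not tested. Dim probes such as those of Plxnb3 and Sema3e carry the most weight of the added offset.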
